A study of Mus musculus with 3 samples.

Results

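Runx3 binding and monomethylation of histone H3 at lysine 4 (H3K4me1) were examined at 8 genes that make and load MHC class I molecules, H2-K1, H2-D1, H2-M3, B2m, Tap1, Tap2, Tapbp and Nlrc5. The genes were chosen by symbol, and all 8 were found in the GENCODE M1 annotation of mm9, 7 of them among its 22350 protein-coding genes and Nlrc5 as a long non-coding RNA model. Each gene body with 10 kb on either side is called its window. The windows held 16 of the 15524 Runx3-bound regions and 31 of the 49902 H3K4me1 regions.

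The series holds 3 ChIP-seq samples of resting natural killer cells (NKC) from the spleen of ICR mice, an outbred stock, with 1 sample per antibody. The cells were freshly isolated by negative selection, fixed in formaldehyde and frozen, and no sample is labelled with a mutation or a treatment. Chromatin was precipitated with an in-house polyclonal serum against Runx3, with a monoclonal antibody against H3K4me1, or with serum of non-immunised rabbits (NIS), the control against which regions were called. The labels name sorting on NKp46 and the study's methods name DX5, and the ages and number of mice behind a sample are not given in the sources used here. The deposited data are 2 lists of coordinates with no score, height or p-value, so that a region is either listed or not. There is 1 list per antibody and therefore no spread between replicates, and every count below is a description without a test. Runx3 peaks lay within 1 kb of a start in 8 of 9 NKC marker genes, against 0 of 6 B cell markers, 0 of 6 T cell markers and 1 of 5 myeloid markers (Itgam, which NKC also express), where 28.2% of protein-coding genes had one. In the gene body plus 10 kb the lists were less far apart, with Runx3 peaks in 9 of 9, 4 of 6, 3 of 6 and 2 of 5 genes, beside 44.3% of protein-coding genes.

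MHC class I molecules show peptides from inside the cell to CD8 T cells and are the ligands by which NKC receptors recognise healthy cells of the body. A polymorphic heavy chain pairs with beta-2-microglobulin in the endoplasmic reticulum, peptides cut by the proteasome are pumped in by the transporter TAP, and tapasin holds the empty chain next to that transporter until a peptide fits. Heavy chain and B2m promoters carry a compact module of neighbouring elements, among them a site of the CREB family and an inverted CCAAT box, on which RFX, CREB and NF-Y factors assemble and through which the coactivator Nlrc5 acts.

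The sequences before the starts of the 4 genes that encode the chains are shown first, because they carry the feature that these genes had in common under their Runx3 peaks. Each line gives the 200 bases before the RefSeq start, 5' to 3' in the direction of the gene. The RefSeq promoters were of the later GRCm38.p6 build and were placed on mm9 by exact match. The intervals on mm9 are chr17:34137279-34137478 (minus strand) for H2-K1, chr17:35399839-35400038 (plus strand) for H2-D1, chr17:37406979-37407178 (plus strand) for H2-M3 and chr2:121973223-121973422 (plus strand) for B2m. Capitals mark TGACG with the ATTGG behind it (the CCAAT box read on the other strand) where 20 bases lay between, the NF-kB-like GGGNNTTCC and the IRF-like GAAANNGAA.
H2-K1 start: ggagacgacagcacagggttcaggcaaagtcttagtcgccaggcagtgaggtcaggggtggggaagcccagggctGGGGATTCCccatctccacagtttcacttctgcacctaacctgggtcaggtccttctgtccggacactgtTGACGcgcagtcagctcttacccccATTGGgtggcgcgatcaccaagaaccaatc
H2-D1 start: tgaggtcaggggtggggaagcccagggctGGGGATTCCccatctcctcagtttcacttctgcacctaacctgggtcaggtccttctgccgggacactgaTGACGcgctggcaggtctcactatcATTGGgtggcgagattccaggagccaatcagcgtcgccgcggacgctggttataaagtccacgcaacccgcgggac
H2-M3 start: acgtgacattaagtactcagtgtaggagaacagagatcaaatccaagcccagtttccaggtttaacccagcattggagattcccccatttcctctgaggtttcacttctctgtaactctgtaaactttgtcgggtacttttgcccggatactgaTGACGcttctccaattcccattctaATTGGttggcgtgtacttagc
B2m start: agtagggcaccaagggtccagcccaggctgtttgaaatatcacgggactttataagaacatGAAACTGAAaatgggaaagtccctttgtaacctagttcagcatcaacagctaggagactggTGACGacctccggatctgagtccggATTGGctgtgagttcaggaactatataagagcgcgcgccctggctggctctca

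All 200 bases lay under a Runx3 peak in each of the 4 genes. The spacing of TGACG and ATTGG was 20 bases in all 4, and the first base of TGACG lay 55 bases before the start in H2-K1, 101 in H2-D1, 46 in H2-M3 and 78 in B2m. This pair with exactly 20 bases between was chosen after the sequences had been seen. On either strand it was found in 31 of the 32851 RefSeq promoters of 300 bases (0.0944%), which belonged to 27 of 27025 symbols, and in 19 of the 6138 Runx3 peaks at protein-coding starts (0.310%). With any spacing from 15 to 25 bases the shares were 0.435% of promoters and 1.32% of those peaks. The 27 symbols and the 19 peaks include the 4 genes from which the pair was taken. Promoters of 6 of the 8 genes were in the table, and those of Tap1 and Tapbp did not hold the pair. Apart from H2-M3, itself a class Ib gene, the table held promoters of 20 class Ib heavy chains and of 8 class II presentation genes. None of these held the pair with exactly 20 bases between, which only 0.0944% of all promoters held. Other spacings were not counted for these lists, so whether they carry the pair at another spacing was not tested. The element GGGGATTCC stood at the same distance before the pair in H2-K1 and H2-D1, and its pattern GGGNNTTCC was found in 5.82% of all promoters. GAAACTGAA stood before the pair in B2m, and GAAANNGAA was found in 8.56% of promoters. None of the 4 stretches held a RUNX consensus, that is a match to TGTGGT, to TGTGGC, to TGCGGT or to TGCGGC on either strand. The promoters of 300 bases of the 4 genes held none either, where 45.2% of all promoters of that length held a match.

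A second set of sequences shows Runx3-bound regions with the RUNX consensus. Each line gives the 200 bases around the midpoint of a peak, in the direction of the gene, with capitals for RUNX matches on either strand (ACCACA is TGTGGT read on the other strand). The intervals are chr17:34139149-34139348 (minus strand) before H2-K1, chr17:35395714-35395913 (plus strand) before H2-D1, chr17:34347666-34347865 (plus strand) in an intron of Tap2 and chr17:34057626-34057825 (plus strand) in an intron of Tapbp, all on mm9.
H2-K1 upstream: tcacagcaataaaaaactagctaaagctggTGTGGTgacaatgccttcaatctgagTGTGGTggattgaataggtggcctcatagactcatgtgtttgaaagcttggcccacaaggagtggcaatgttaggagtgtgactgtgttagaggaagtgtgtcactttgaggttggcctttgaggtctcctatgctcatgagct
H2-D1 upstream: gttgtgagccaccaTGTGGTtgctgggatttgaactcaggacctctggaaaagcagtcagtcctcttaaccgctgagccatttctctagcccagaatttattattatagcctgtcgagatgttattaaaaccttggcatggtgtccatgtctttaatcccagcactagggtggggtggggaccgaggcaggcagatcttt
Tap2 intron: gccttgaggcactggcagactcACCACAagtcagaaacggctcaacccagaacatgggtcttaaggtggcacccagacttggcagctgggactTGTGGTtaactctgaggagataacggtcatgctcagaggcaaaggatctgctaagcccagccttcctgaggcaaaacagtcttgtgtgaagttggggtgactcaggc
Tapbp intron: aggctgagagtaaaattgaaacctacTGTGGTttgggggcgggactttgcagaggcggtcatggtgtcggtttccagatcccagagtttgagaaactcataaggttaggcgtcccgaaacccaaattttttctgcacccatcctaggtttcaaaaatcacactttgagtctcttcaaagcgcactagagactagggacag

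Of the 8 genes, 7 had a Runx3 peak in the window, where 44.3% of protein-coding genes had one, and the gene without was Nlrc5. The same 7 had a peak at a start, meaning that it shared a base with the 1 kb on either side of an annotated transcript start, against 28.2% of protein-coding genes. Of the 8 genes, 6 lie on chromosome 17 between Tapbp and H2-M3, a stretch of 3359 kb that holds most of the mouse MHC. Of the 178 other protein-coding genes in that stretch, 57 had a Runx3 peak at a start (32%), a share near that of the genome. All 8 genes had an H3K4me1 region in the window (70.4% of protein-coding genes) and 7 had one at a start (59.6%), again all but Nlrc5. Neighbouring windows overlapped, so the 16 peaks are distinct peaks, and 3 of them lay in the windows of both Tap1 and Tap2.

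**Figure D1:**
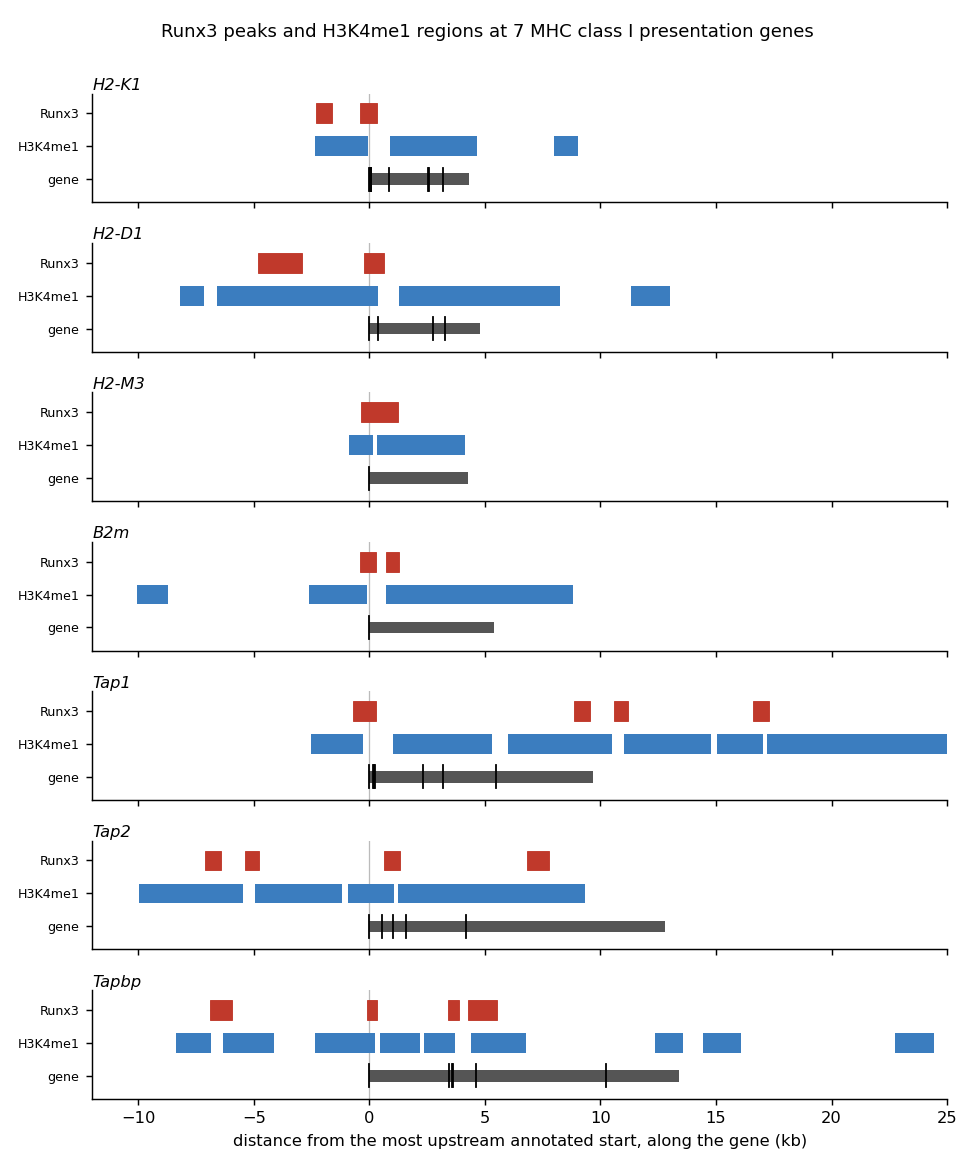
Runx3 peaks (red), H3K4me1 regions (blue) and gene bodies (grey, with a black tick at each annotated start) at 7 genes, by distance in kb from the most upstream start along the direction of the gene. Regions that touch the window are drawn whole, up to 25 kb. A Runx3 peak sits at a start of each of the 7 genes, and the blue track has a break under or beside each of these peaks.

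H2-K1 and H2-D1 encode the classical heavy chains, and both had a peak at the start and a further one upstream. The H2-K1 start peak (chr17:34136965-34137696) was 732 bp wide with its midpoint 52 bp before the start. The upstream peak (chr17:34138914-34139585) was 672 bp wide and centred 1971 bp before the start. At H2-D1 the start peak (chr17:35399444-35400320) was 877 bp wide and centred 207 bp past the most upstream annotated start, in a UTR exon of a longer transcript. The upstream peak of H2-D1 (chr17:35394876-35396752) was centred 3861 bp before the start. At 1877 bp it was the widest of the 16, at percentile 99.2 of the widths of all Runx3 peaks. Both upstream peaks lay in intergenic sequence and were wholly inside an H3K4me1 region. The H2-K1 and H2-D1 promoters of 300 bases were 73.3% identical over 240 bases at their best ungapped alignment, with a longest shared run of 47 bases, which exceeds the read length of 40 bp. Even so, 96.0% of the 40 base stretches in the H2-K1 start peak and 90.9% in that of H2-D1 occurred once in mm9. In the upstream peaks the shares were lower, 85.4% at H2-K1 and 88.4% at H2-D1.

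H2-M3 encodes a non-classical heavy chain that presents N-formylated peptides. Its window held 1 Runx3 peak (chr17:37406812-37408395), 1584 bp wide (percentile 97.6). The peak was centred 438 bp past the start in a coding exon and touched both H3K4me1 regions of the window. H2-M3 had the fewest Runx3 peaks of the 7 genes and the lowest H3K4me1 cover of them, 20.05% of the window.

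B2m encodes beta-2-microglobulin, the light chain of every class I molecule, and lies on chromosome 2 apart from the MHC. Its start peak (chr2:121973037-121973708) was 672 bp wide and centred 50 bp before the start. A neighbouring peak (chr2:121974152-121974719) was 568 bp wide, lay 1013 bp past the start in an intron, and reached into the 1 kb around the start with its edge. The gene Patl2 runs through both peaks in this annotation, but B2m had the nearest start to both midpoints.

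Tap1 and Tap2 encode the subunits of the peptide transporter and lie side by side with Psmb9 and Psmb8, which encode catalytic subunits of the immunoproteasome. The window of each transporter gene held 4 Runx3 peaks, a number at percentile 96.8 among protein-coding genes. The peak at the Tap1 start (chr17:34323788-34324767, 980 bp) was centred 221 bp before Tap1 and 6 bp from a start of Psmb9, which is read in the other direction, so that this peak cannot be assigned to either gene. The peak at the Tap2 start (chr17:34341107-34341798, 692 bp) lay in a UTR exon, 60 bp from an annotated Tap2 start and 980 bp past the most upstream one. Between them, a peak in the last part of Tap1 (chr17:34333360-34334033, 674 bp, in a coding exon) and a peak in a coding exon of Psmb8 (chr17:34335077-34335690, 614 bp) both had a Psmb8 start as their nearest, at 970 and 171 bp. The fifth peak of this cluster (chr17:34347292-34348240, 949 bp) lay in an intron of Tap2, 3115 bp from the nearest start and wholly inside an H3K4me1 region.

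Tapbp encodes tapasin, the chaperone that bridges the heavy chain and the transporter. Its window held 4 Runx3 peaks, 3 of them at a Tapbp start. The start used by RefSeq lay under a peak of 467 bp (chr17:34056252-34056718), whose midpoint was 28 bp from an annotated Tapbp start. A broader peak of 1258 bp (chr17:34057098-34058355) followed in the intron behind it. The third, at 441 bp (chr17:34052751-34053191) the narrowest of the 16 and at percentile 0.986 of all widths, lay at the most upstream Tapbp start but was nearest to a start of its neighbour Zbtb22, at 122 bp. The fourth (chr17:34045958-34046918, 961 bp) was centred 5 bp from the start of Daxx. Over the 16 peaks, 11 were nearest to a start of 1 of the 8 genes and 5 to a start of another gene (Daxx, Zbtb22, Psmb9 and, for 2 peaks, Psmb8). Counting only starts nearer to the peak than any start of another gene left 6 of 8 genes with a start peak, Tap1 being the gene lost.

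Nlrc5 encodes the class I transactivator, and its window of 74.5 kb held no Runx3 peak. It held 4 H3K4me1 regions, 3 of them in the gene body, and none within 1 kb of an annotated start. The nearest Runx3 midpoint to the most upstream annotated start lay 59.1 kb before it (chr8:96937058-96938130). The first peak after the gene end (chr8:97064975-97065836) lay 14.2 kb beyond it, 8438 bp from a start of Cpne2 and 16.4 kb from the last of the 3 annotated Nlrc5 starts. The annotated model may lack its first part, since in RefSeq Nlrc5 overlaps 9330175E14Rik, whose start on mm9 lies 37.7 kb before the GENCODE M1 model of Nlrc5. Extending the gene body to that start gave 10 H3K4me1 regions, 2 of them within 1 kb of it, and still 0 Runx3 peaks. Of the 40 base stretches in the Nlrc5 window, 90.3% occurred once in mm9, and all of those within 1 kb of its start did. A region below the calling threshold cannot be told apart from an unbound one in a list of coordinates.

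**Figure D2:**
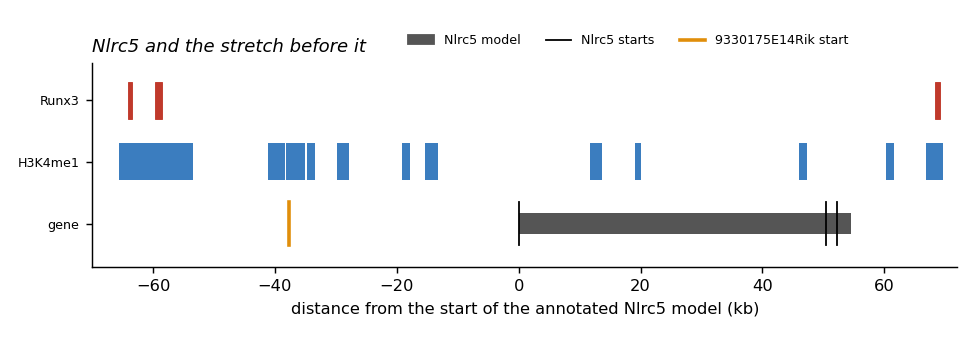
Runx3 peaks (red) and H3K4me1 regions (blue) around the Nlrc5 model (grey, black ticks at its annotated starts), by distance in kb from its start, with the start of 9330175E14Rik in orange. The closest red bars stand 59.1 kb before the start and 14.2 kb beyond the end of the model, while blue bars lie on both sides of the orange tick.

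All 16 peaks shared at least 1 base with an H3K4me1 region, as did 95.7% of all Runx3 peaks. The cover differed with position. The 10 peaks at starts of the 8 genes were all covered in part, against 62.7% of the Runx3 peaks at protein-coding starts. Part cover reached 98.4% at the intron peak of B2m. The median cover was 71.8% over the 10 and 81.0% over the peaks at protein-coding starts. The midpoint lay in an H3K4me1 region in 7 of the 10, a share near the 66.7% of the peaks at protein-coding starts. Of the 10, 2 touched 2 or more H3K4me1 regions (29.7% of the peaks at protein-coding starts did). Of the other 6 peaks, 4 were wholly covered. The remaining 2 were centred 5 bp from a Daxx start and 171 bp from a Psmb8 start. The wholly covered peak in the last part of Tap1 also lay within 1 kb of a Psmb8 start. Over all Runx3 peaks 27.3% were covered in part and the median cover was 100%, so whole cover was also the common state there. At H2-K1, Tap1 and B2m the annotated start itself lay in a stretch free of H3K4me1, which was 966 bp long at H2-K1, 1320 bp at Tap1 and 824 bp at B2m, and the midpoint of the start peak lay in it. At H2-D1 the corresponding stretch of 874 bp began past the peak midpoint, and at H2-M3 it was 141 bp long and lay wholly under the peak. H3K4me1 covered 67.4% of the window at H2-D1, 64.8% at Tap1, 56.1% at Tap2, 46.8% at B2m, 45.8% at Tapbp and 29.2% at H2-K1, against a median of 7.70% over protein-coding genes. Nlrc5, at 7.48%, was close to that median. The widest H3K4me1 regions were 8116 bp long over Tap2 and 8073 bp over B2m (chr17:34341708-34349823 and chr2:121974161-121982233).

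Of the 10 peaks at starts of the 8 genes, 7 held a RUNX consensus, against 91.6% of the peaks at protein-coding starts. A match was present in 13 of the 16 peaks, against 93.3% of all Runx3 peaks. The 3 peaks with none were the start peaks of H2-K1, H2-D1 and B2m. The start peak of H2-M3 held 2 matches, the nearest 106 bp from its midpoint, and that of Tap1 held 1, at 227 bp. The 6 peaks away from the starts of the 8 genes, which include those at the Daxx and Psmb8 starts, held 3 to 6 matches each. The widest of them, at 1877 bp, held the 6. The median was 2 matches over the 16 peaks as over all Runx3 peaks, and 3.01 against 2.96 matches per kb. Over the 10 peaks at the starts the median was 1.51 matches per kb, against 2.73 over the peaks at protein-coding starts. All 6 peaks away from the starts had a match in the central 200 bases, which 69.1% of all Runx3 peaks had. Of the 10 peaks at the starts, 2 had such a central match, both at Tapbp, against 61.6% of the peaks at protein-coding starts. The variant TGTGGT was found in 4 of the 10 peaks at the starts and in 8 of the 16 peaks, beside 46.2% of the peaks at protein-coding starts and 65.5% of all Runx3 peaks. ETS-like matches (CGGAAGT or AGGAAGT, on either strand) were found in 5 of the 16 peaks and in 41.8% of all Runx3 peaks. Only 1 of the 10 peaks at the starts held one, against 41.9% of the peaks at protein-coding starts. IRF-like matches (GAAANNGAA) were found in 7 of the 16, at H2-M3, B2m, Tap1, Tap2, Tapbp, Psmb8 and upstream of H2-D1, against 23.3% of all Runx3 peaks. CCAAT was found in 8 of the 10 peaks at the starts and in 62.9% of those at protein-coding starts. The NF-kB-like GGGNNTTCC was found in 2 of the 10, against 17.6%. TGACGT, a CREB half-site that extends the TGACG of the pair, was found in 0 of the 16 peaks. It was found in 16.1% of all Runx3 peaks and in 23.1% of those at protein-coding starts. The peaks at the starts had a median width of 712 bp, at percentile 27.6 of all widths, beside 844 bp for the peaks at protein-coding starts.

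The other genes of the pathway were described with the same rule. Among genes of peptide loading and trimming, 3 of 5 had a Runx3 peak at a start, namely the tapasin relative Tapbpl and the chaperones Calr and Canx, while the disulfide isomerase Pdia3 and the trimming peptidase Erap1 had none in the window. Among the immunoproteasome genes, 4 of 5 had a peak at a start, the catalytic subunits Psmb8, Psmb9 and Psmb10 and the activator subunit Psme2. Of 11 regulators of class I transcription, 7 had a peak at a start, which were Rfx5, Nfya, Nfyb, Creb1, Irf1, Irf2 and Nfkb1. The NF-kB gene Nfkb1 had 4 such peaks. Rfxank, Rfxap, Nfyc and Rela had no peak in the window. Of the 11 genes of class II presentation, which serve antigen presenting cells, 0 had a Runx3 peak at a start. H3K4me1 was at a start of 9 of the 11, beside 59.6% of protein-coding genes. A Runx3 peak lay elsewhere in the window of 5 of the 11, a share near the 44.3% of protein-coding genes with a peak in the window. The lists hold few genes each, and the counts with a Runx3 peak at a start stand beside 28.2% for all protein-coding genes.

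**Figure D3:**
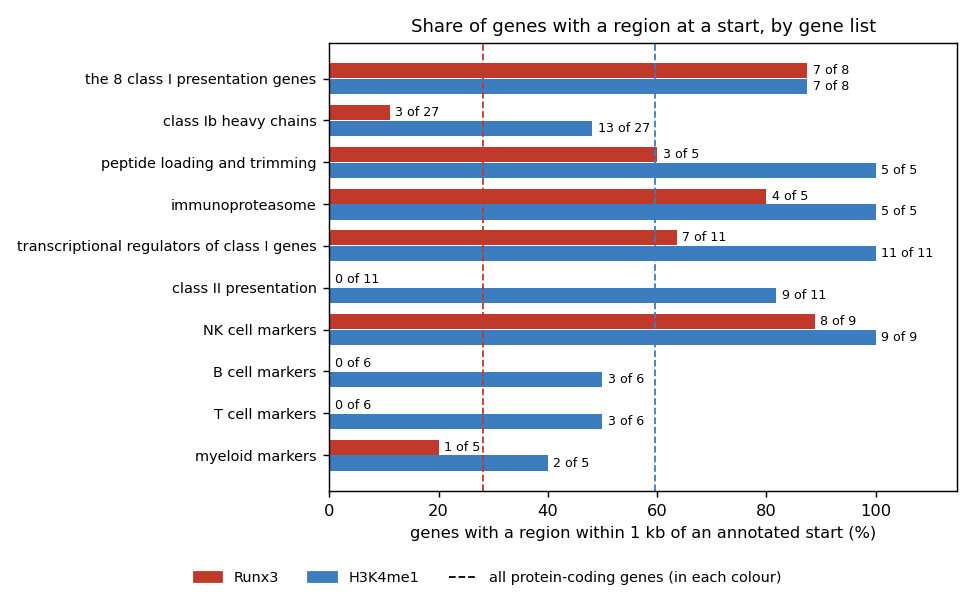
Share of the genes of each list (in %) with a Runx3 peak (red) or an H3K4me1 region (blue) within 1 kb of an annotated start, with the counts at the bars and the share of all protein-coding genes as dashed lines in the same colours (28.2% and 59.6%). The class I presentation genes stand at 7 of 8 for both, the class Ib heavy chains at 3 of 27 for Runx3 and the class II genes at 0 of 11.

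The other class Ib heavy chains (H2-M3 is left out of this list), relatives of H2-K1 and H2-D1 with narrower expression or ligands, differed from the 3 heavy chains above. Of the 27 found in the annotation, 3 had a Runx3 peak at a start (H2-Q10, H2-T10 and H2-T24), a share of 11.1%, and 2 had a peak only elsewhere in the window. H3K4me1 was at a start of 13 of the 27. The authors kept only reads that aligned to a single place, so sequence uniqueness is given beside these calls. Within 1 kb of the most upstream start, 80.1% of 40 base stretches occurred once in mm9 at H2-K1, 91.9% at H2-D1 and 94.7% at H2-M3, where the median over protein-coding genes was 99.3%. The 24 class Ib genes with no Runx3 peak at a start had a median of 86.6%, and 10 of them stood at or above 90%. For the 10 of the 24 that had H3K4me1 at a start the median was 75.5%, from 35.7% at H2-Q6 to 99.6% at Mr1. The share was 34.5% at H2-Q8, 39.5% at H2-Q7 and 45.9% at H2-T23, genes with close copies next to each other. H2-T10 had a peak at a start at 67.2%, and most H2-M genes had neither mark at shares above 90%, among them H2-M2 and H2-M11 at 100%. The part of read placement in the absence of peaks at the class Ib genes was not tested. ICR mice may also carry class I alleles that differ from the C57BL/6J reference of mm9, and the share of their reads that failed to align was not tested.

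**Figure D4:**
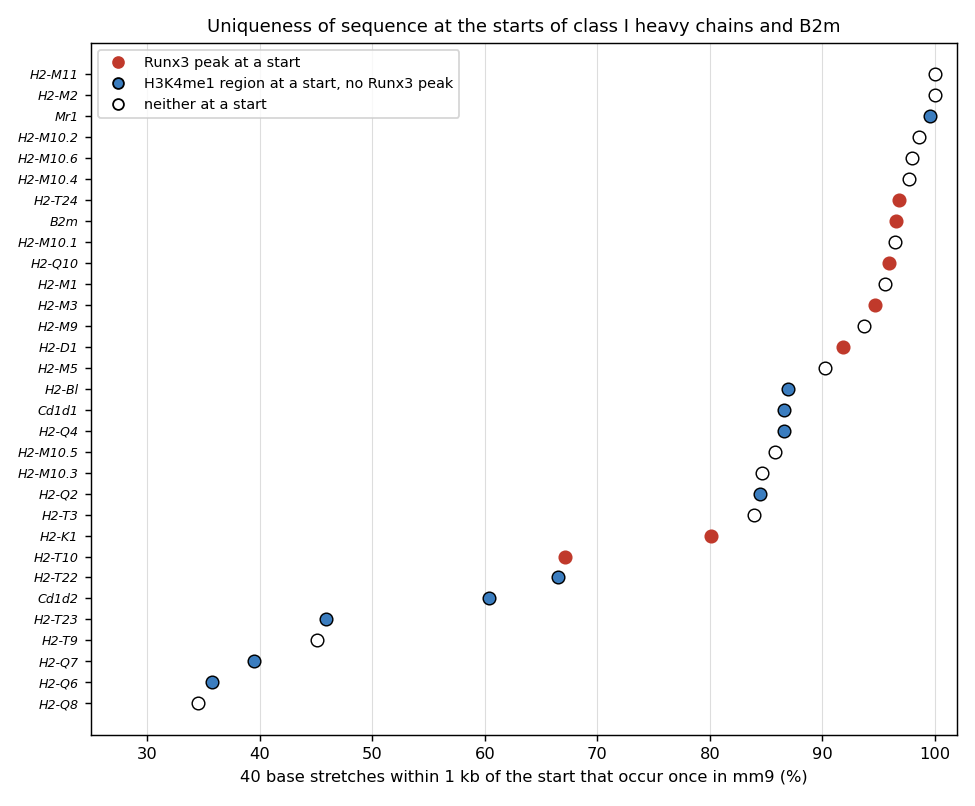
Share of the 40 base stretches within 1 kb of the start that occur once in mm9 (in %) for the class I heavy chains and B2m, coloured by whether a Runx3 peak (red), only an H3K4me1 region (blue) or neither (white) lay at a start. The red points lie between 67.2% and 96.8%, and blue points make up most of the lower end.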

How the data were processed

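The labels give 40 bp reads placed on mm9 by ELAND and call each sample a first experiment. The methods state that unique alignments were kept, that repeats were joined and that MACS compared each antibody with NIS. Whether a list rests on the first experiment or on the joined reads cannot be told from its coordinates. The submitters' processing notes name CASAVA 1.7. The lists the authors deposited hold region coordinates and, for Runx3, a running name, with its further columns empty, so the depth and enrichment of a region are unknown. Starts in the lists count from 0 and are given here from 1. Genes, exons and transcript starts came from GENCODE M1 on mm9, and RefSeq (GRCm38.p6) gave promoter sequences and gene order only. A region was counted when it shared at least 1 base with a gene body plus 10 kb, or with 1 kb on either side of a transcript start. Motifs were searched on both strands of the mm9 sequence. Uniqueness was the percent of 40 base stretches that occurred once on either strand of the genome. Overlap, motif and uniqueness code was tested on simulated data. The 8 genes and all gene lists were chosen with earlier results of these data known. A gene of the planned list of regulators is not reported here. Genes of the pathway lists were named when a peak lay at a start or none in the window. Python 3.11.15 with numpy 2.4.6, pysam 0.24.0 and numba 0.67.0 was used, and no statistical test was run.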

Additional observations from a re-analysis of the deposited data

How the results depend on the processing

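Each of the 9 results was recomputed with other flanks, distances, overlap rules and annotations, in 45 alternatives, 6 of them chosen after seeing the data. Of the 45, 33 stayed within 1.5 times the count or within the 95% Wilson interval of the percent, and 12 were counted as moved. For the median width and the share of unique stretches, any change was counted as moved. A flank of 20 kb gave all 8 genes a Runx3 peak, through the peak beyond the Nlrc5 end. Keeping only regions wider than the median of their list left 7 of 16 Runx3 peaks, 17 of 31 H3K4me1 regions and 4 of 7 genes with a start peak (H2-D1, H2-M3, Tap1 and Tapbp), and a flank of 0 kb left 18 H3K4me1 regions. The share of the 16 peaks with H3K4me1 fell from 100% to 68.8% when the midpoint had to lie in a region. Under that midpoint rule the share was 83.6% over all Runx3 peaks and 66.7% over those at protein-coding starts. It likewise fell to 68.8% of the 16 when 50% of the peak had to be covered. The share of the 16 with a RUNX consensus was 50% in the central 200 bases and 50% for TGTGGT alone, against 81.3%. The median width at starts was 732 bp within 0.5 kb and 692 bp within 2 kb. The share of unique stretches in the windows was 87.4% at 32 bases and 91.2% on the forward strand only, against 89.9%. Protein-coding transcripts alone drop Nlrc5, which has none in GENCODE M1. No paired analysis was possible because each antibody had 1 list. With 1 list per antibody and no scores, how far any region depends on the depth or on the calling threshold was not tested.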
